A study of Homo sapiens with 6 samples.

Results

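The genes described here are writers and erasers of cytosine methylation, with adaptors and a methyl-CpG-binding protein, in KYSE150 cells. They are 10 genes of the 67140 in the table. They were chosen by symbol: the DNA methyltransferases DNMT1, DNMT3A and DNMT3B, the hemimethyl-CpG adaptors UHRF1 and UHRF2, the TET dioxygenases TET1, TET2 and TET3, the glycosylase TDG and the methyl-CpG-binding protein MBD2. The KYSE150 line is derived from a human esophageal squamous cell carcinoma. RNA sequencing compared 3 samples of KYSE150 carrying a control hairpin (shCtrl) with 3 carrying a hairpin against the long non-coding RNA AC007128.1 (shAC007128.1), to see what depletion of this RNA changes. All 6 samples were grown in RPMI 1640 with fetal bovine serum, and they are grouped by title, since the treatment text of the labels names the AC007128.1 hairpin for every sample. The study used lentivirus and puromycin for its stable lines, and the sources do not say whether each is a pool or a clone. With 1 hairpin and 1 control, an effect of AC007128.1 and any other difference between these cultures cannot be told apart. The sources used here do not say whether the 3 samples of a group were separate cultures, and p-values measure only the spread between them.

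Methyl groups are put on cytosine, mostly at CpG, by maintenance and de novo enzymes. DNMT1 copies the pattern onto the new strand after replication, guided by UHRF1, which recognizes hemimethylated CpG and ubiquitinates histone H3. DNMT3A and DNMT3B methylate DNA that carried no mark. TET enzymes oxidize the methylated base with 2-oxoglutarate as cosubstrate, TDG cuts out the oxidized base, and repair restores cytosine. MBD2 reads the mark and brings the NuRD repressor complex to it. In dividing cells, UHRF1 and DNMT1 are known as genes of S phase.

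Totals were 55764405 to 60158244 counts in the shAC007128.1 samples and 65140326 to 78610457 in the shCtrl samples. The hairpin's target, AC007128.1, was low in every sample, with 33 to 69 counts in shCtrl and 15 to 37 in shAC007128.1. The log2 fold change was -0.77 ± 0.51 (SE, edgeR adjusted p = 0.271), so a depletion was not detected from these low counts. It was -0.51 without shCtrl replicate 1 and -1.29 without shAC007128.1 replicate 2, and it passed the test in neither case (edgeR adjusted p = 0.562 and 0.0959). The study checked the hairpin by qPCR, a measurement that these data do not hold. Of 12 squamous epithelial markers, 11 exceeded 10 CPM (counts scaled to library size with TMM factors) in every sample, the exception being SOX2 at 0.328 to 0.59 CPM in shCtrl and 3.89 to 5.17 CPM in shAC007128.1. The squamous markers also moved with the groups, with 8 higher (SOX2, KRT6A and KRT14 with log2 fold changes of 3.40, 2.46 and 2.28 among them) and 1 lower (DSG3 at -1.09), all by the edgeR test. By that test 21.0% of all genes were higher and 19.8% lower. Of 14 markers of fibroblasts, blood cells and endothelium, 10 were below 1 CPM in every sample. The 14 summed to 78.3 to 85.4 CPM in shCtrl and 40.4 to 45.1 CPM in shAC007128.1, with CD68 (58.8 to 67.3 against 13.5 to 23.5 CPM) the largest difference. Of the 7 tested, 2 were lower and 2 higher, LUM (0.604 to 1.39 against 3.91 to 5.30 CPM) and COL1A1 (13.3 to 14.9 against 16.8 to 18.6 CPM). The part of both marker lists in the results was not tested.

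The sequence in front of 3 of the genes is shown because UHRF1 and TET1 are among the members with the largest rises, and DNMT1 did not rise with them. The window of DNMT3B, which rose the most, is not shown. Each line gives the 250 bases before the MANE Select start in GENCODE v44, read from hg38 in the direction of transcription. They lie at chr19:4909251-4909500 (plus strand) for UHRF1, chr19:10194954-10195203 (minus strand) for DNMT1 and chr10:68560087-68560336 (plus strand) for TET1. Capitals mark E2F words, the letters TTTCCCGC, TTTCGCGC, TTTGCCGC or TTTGGCGC on either strand. E2F factors are the main transcription factors of S phase entry.
UHRF1: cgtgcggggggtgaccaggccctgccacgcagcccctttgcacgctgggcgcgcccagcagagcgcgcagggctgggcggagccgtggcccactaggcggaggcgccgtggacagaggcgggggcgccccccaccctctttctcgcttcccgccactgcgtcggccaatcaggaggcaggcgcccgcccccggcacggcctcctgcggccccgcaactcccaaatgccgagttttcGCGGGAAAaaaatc
DNMT1: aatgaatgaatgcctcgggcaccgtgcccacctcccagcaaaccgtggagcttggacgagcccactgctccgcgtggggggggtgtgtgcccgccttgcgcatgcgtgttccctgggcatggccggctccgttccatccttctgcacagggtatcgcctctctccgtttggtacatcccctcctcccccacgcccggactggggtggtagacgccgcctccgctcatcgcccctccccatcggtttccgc
TET1: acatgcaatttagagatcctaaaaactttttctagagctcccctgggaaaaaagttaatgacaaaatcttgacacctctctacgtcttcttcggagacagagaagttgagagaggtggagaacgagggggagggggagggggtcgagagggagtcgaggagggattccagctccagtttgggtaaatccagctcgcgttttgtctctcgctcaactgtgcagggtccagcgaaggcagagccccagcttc
UHRF1 was the only member of the 10 with such a word in this window, TTTCCCGC on the minus strand, from 14 to 7 bases before the start. It also had a CCAAT word, from 86 to 82 bases before the start, as did TDG. CCAAT, searched on either strand, was in 34.4% of all promoters of this length. An E2F word was in 713 of 19061 promoters of this length (3.74%) and in 14 of 41 promoters of the S phase list used below (34.1%). The window of TET1 held 9 CpG, fewer than any other member. The other 9 held 21 to 37, against a median of 18 over all promoters. A word describes letters only, and no match says only that these letters are not in this window.

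Expression of the members was higher in shAC007128.1 cells for 8 genes, with both de novo and maintenance components among them. DNMT3B rose 2.77-fold, TET1 2.61-fold, UHRF1 1.91-fold and TET2 1.78-fold. TDG (1.55-fold), UHRF2 (1.44-fold), TET3 and MBD2 (1.32-fold each) rose by less. For DNMT1 and DNMT3A no change was called. All 10 genes passed the filter on low counts. With edgeR's quasi-likelihood test and a limit of 0.05 on the adjusted p-value, 8 members were called higher and 0 lower. Of all 19254 genes tested, 21.0% were higher and 19.8% lower. At an unadjusted p under 0.05 no member was lower, and DESeq2 and limma-voom also called 0 lower and 8 higher. With the fold limit of 2 that the study used, DNMT3B and TET1 were called, against 5.57% of all genes higher and 10.1% lower. The median log2 fold change was 0.58 over the members and -0.02 over all genes tested.

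**Figure D1:**
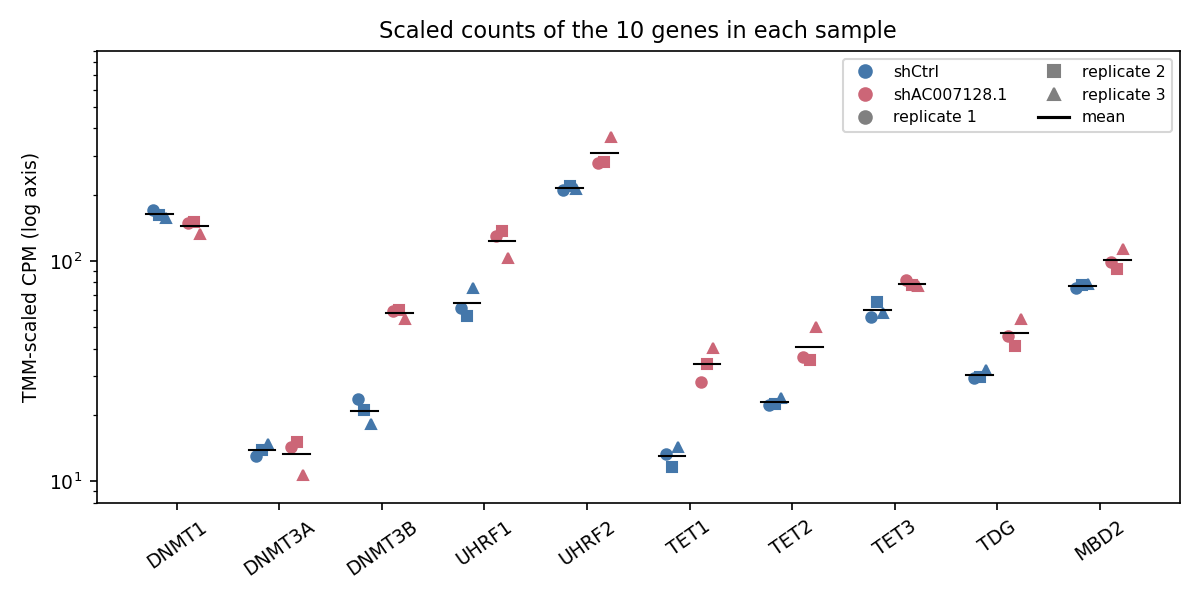
Scaled counts (CPM, log axis) of the 10 genes in the 3 shCtrl (blue) and 3 shAC007128.1 (red) samples, with symbols for the replicate number and a line at the mean of each group. For 8 genes every red point lies above every blue point, and for DNMT1 every red point lies below.

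In 9 of the 10 genes the groups did not overlap, 8 with shAC007128.1 above and DNMT1 below. The same held for 55.2% of the genes tested, so separation alone is common in this comparison. The shAC007128.1 replicate 3 lay farthest from its group mean, on the log2 scale, for 8 of the 10 genes. It was above the other two for UHRF2, TET1, TET2, TDG and MBD2 and below them for DNMT1, DNMT3A, DNMT3B, UHRF1 and, by a small margin, TET3. Without it 8 members were still called higher and 0 lower, and UHRF1 joined DNMT3B and TET1 above 2-fold. These are bulk samples, in which a change in level per cell and a change in the share of cells in a given state cannot be told apart.

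DNMT3B, a de novo methyltransferase, had 23.6, 21.0 and 18.2 CPM in shCtrl replicates 1, 2 and 3 and 59.3, 60.0 and 54.8 CPM in shAC007128.1 replicates 1, 2 and 3. The lowest shAC007128.1 sample was above the highest shCtrl sample by a wide margin. The mean went from 20.9 ± 2.71 (SD, n = 3) to 58.0 ± 2.81 CPM (SD, n = 3), a log2 fold change of 1.47 ± 0.12 (SE, edgeR adjusted p = 0.000115). This was above the log2 fold change of 97.0% of the genes tested. The count covers the whole gene (chromosome 20, 32762385 to 32809359, plus strand) and does not separate its catalytically active and inactive splice forms.

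DNMT3A, the other de novo enzyme (chromosome 2, 25227855 to 25342590, minus strand), had 13.0, 13.8 and 14.7 CPM in shCtrl and 14.3, 15.0 and 10.7 CPM in shAC007128.1. The groups overlapped. Its log2 fold change was -0.05 (95% interval -0.41 to 0.31, edgeR adjusted p = 0.81), and without shAC007128.1 replicate 3 it was 0.07, so no direction can be given. The log2 ratio of DNMT3B to DNMT3A counts was 0.59 ± 0.28 (SD, n = 3) in shCtrl and 2.14 ± 0.19 (SD, n = 3) in shAC007128.1 cells. The two-sided exact permutation p was 0.1, the smallest that 3 samples against 3 allow, and 0.117 after Benjamini-Hochberg adjustment over the 7 ratios computed, which were chosen after the values were seen.

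DNMT1, the maintenance methyltransferase (chromosome 19, 10133342 to 10231286, minus strand), had 171, 161 and 157 CPM in shCtrl and 149, 150 and 133 CPM in shAC007128.1. Every shAC007128.1 sample was below every shCtrl sample, by little. The mean went from 163 ± 7.2 (SD, n = 3) to 144 ± 9.68 CPM (SD, n = 3). The log2 fold change of -0.18 ± 0.08 (SE, 95% interval -0.36 to 0.00) did not pass the test (edgeR adjusted p = 0.106). Scaled by library size only, it was -0.25 and was called lower (edgeR adjusted p = 0.0349), a setting in which the median of all genes was -0.10. Of its 15379 exonic bases, 83 are shared with S1PR2 on the same strand.

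UHRF1, the partner that brings DNMT1 to replicated DNA, had 61.3, 56.5 and 75.7 CPM in shCtrl and 130, 137 and 103 CPM in shAC007128.1. The shAC007128.1 samples were all higher, and replicate 3 of each group lay nearest to the other group. The mean went from 64.5 ± 10.0 (SD, n = 3) to 123 ± 18.0 CPM (SD, n = 3), a log2 fold change of 0.94 ± 0.15 (SE, edgeR adjusted p = 0.0023). UHRF1 lies on chromosome 19 (4903080 to 4962154, plus strand). The E2F word shown above is in front of its MANE Select start, which lies inside this span. The log2 ratio of UHRF1 to DNMT1 counts moved from -1.35 ± 0.26 (SD, n = 3) to -0.23 ± 0.12 (SD, n = 3), with an exact permutation p of 0.1 (adjusted p = 0.117). The highest shCtrl sample was at -1.05 and the lowest shAC007128.1 sample at -0.37, so the groups were apart. With UHRF1 above and DNMT1 below shCtrl in every shAC007128.1 sample, this ratio had to separate. It adds nothing to the results of the single genes.

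UHRF2, a paralog of UHRF1 that also binds modified CpG and does not replace UHRF1 in maintenance (chromosome 9, 6413151 to 6507054, plus strand), had 210, 220 and 213 CPM in shCtrl and 279, 280 and 367 CPM in shAC007128.1. Replicates 1 and 2 of shAC007128.1 were nearly equal and replicate 3 stood above them. The log2 fold change was 0.53 ± 0.11 (SE, edgeR adjusted p = 0.0087). The log2 ratio of UHRF1 to UHRF2 was -1.74 ± 0.24 (SD, n = 3) in shCtrl and -1.32 ± 0.44 (SD, n = 3) in shAC007128.1, with overlapping groups and an exact permutation p of 0.3. The overlap came from shAC007128.1 replicate 3, at -1.83, while the other shAC007128.1 samples, at -1.10 and -1.03, were above every shCtrl sample. Without that replicate the log2 fold changes were 1.04 for UHRF1 and 0.38 for UHRF2. With 3 samples against 3, no ratio could reach a p of 0.05.

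TET1, a TET enzyme with a CXXC domain that binds CpG (chromosome 10, 68560337 to 68694487, plus strand), had 13.3, 11.6 and 14.3 CPM in shCtrl and 28.1, 34.0 and 40.4 CPM in shAC007128.1. The lowest shAC007128.1 sample was about as far from the highest shCtrl sample as the shAC007128.1 samples were from each other. The mean went from 13.1 ± 1.39 (SD, n = 3) to 34.1 ± 6.19 CPM (SD, n = 3), and the log2 fold change was 1.39 ± 0.16 (SE, edgeR adjusted p = 0.000544). Only DNMT3B among the members had a higher one.

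TET2, which lacks a CXXC domain of its own (chromosome 4, 105145875 to 105279816, plus strand), had 22.1, 22.5 and 23.8 CPM in shCtrl and 36.6, 35.4 and 49.9 CPM in shAC007128.1. Its shCtrl values lay close together and shAC007128.1 replicate 3 was the high sample. The log2 fold change was 0.83 ± 0.15 (SE, edgeR adjusted p = 0.00358). TET3 (chromosome 2, 73984910 to 74108176, plus strand) had 55.8, 65.0 and 58.3 CPM in shCtrl and 81.6, 77.8 and 77.3 CPM in shAC007128.1. Its log2 fold change was 0.40 ± 0.09 (SE, edgeR adjusted p = 0.00822), the smallest of the TET genes. Of its 12943 exonic bases, 390 are shared with the long non-coding RNA ENSG00000235499 on the same strand. The log2 ratio of TET1 to TET3 counts was -2.19 ± 0.26 (SD, n = 3) in shCtrl and -1.22 ± 0.30 (SD, n = 3) in shAC007128.1, and the groups were apart (exact permutation p = 0.1, adjusted p = 0.117).

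TDG, the glycosylase that removes oxidized methylcytosine and thymine from mismatches (chromosome 12, 103965822 to 103988874, plus strand), had 29.5, 29.7 and 32.1 CPM in shCtrl and 45.8, 41.1 and 54.6 CPM in shAC007128.1. The spread within shAC007128.1 was wider than within shCtrl, but the groups did not meet. Of its exonic bases, 168 are shared with a long non-coding RNA. The log2 fold change was 0.63 ± 0.12 (SE, edgeR adjusted p = 0.00509). MBD2 (chromosome 18, 54151606 to 54224669, minus strand) had 75.0, 77.5 and 78.5 CPM in shCtrl and 99.0, 91.8 and 113 CPM in shAC007128.1. Its log2 fold change was 0.40 ± 0.09 (SE, edgeR adjusted p = 0.013). This was the member called with the least margin, and without shCtrl replicate 1 it was 0.37 and no longer passed (edgeR adjusted p = 0.0554).

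**Figure D2:**
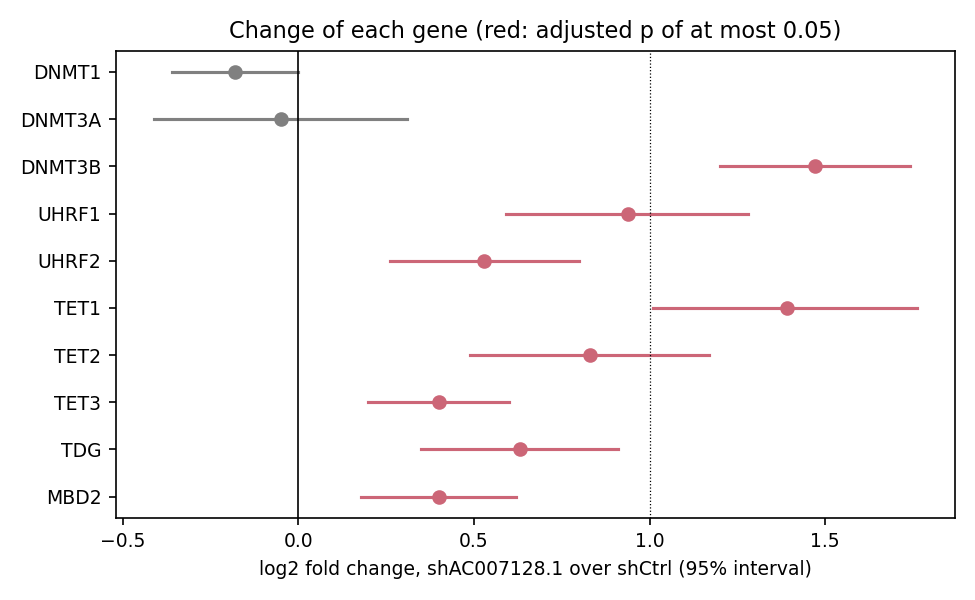
Log2 fold change of each gene in shAC007128.1 over shCtrl cells with its 95% interval (red, called higher; gray, not called), with a solid line at no change and a dotted line at 2-fold. The whole intervals of DNMT3B (1.20 to 1.74) and TET1 (1.01 to 1.76) lie beyond 2-fold. The interval of DNMT3A spans 0, and that of DNMT1 (-0.36 to 0.00) reaches 0.

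To compare levels between genes, counts were divided by merged exon length and scaled to the same sum in every sample, which gives TPM values. UHRF2 had the highest level in shCtrl cells (68.7 ± 2.27 TPM, SD, n = 3), followed by MBD2 (43.1 ± 1.83), UHRF1 (40.0 ± 7.00) and DNMT1 (33.7 ± 0.908). TDG (19.8 TPM), TET3 (14.7), DNMT3B (9.67), TET2 (4.41), TET1 (4.33) and DNMT3A (3.20) followed. MBD2 and UHRF1, UHRF1 and DNMT1, and TET2 and TET1 overlapped between samples, so their order is not resolved. In shAC007128.1 cells the order was UHRF2 (97.8 TPM), UHRF1 (75.6), MBD2 (56.0), TDG (30.3), DNMT1 (29.5), DNMT3B (26.6), TET3 (19.2), TET1 (11.2), TET2 (7.74) and DNMT3A (3.05). There TDG overlapped with DNMT1 and with DNMT3B, DNMT1 with DNMT3B, and TET1 with TET2. The length matters most for DNMT1, which has 52 annotated transcripts: with the length of its MANE Select transcript (5274 bases) it had 64.6 ± 1.62 TPM in shCtrl and was second to UHRF2.

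The make-up of the DNMT family differed between the groups. DNMT1 was 71.7, 72.1 and 73.3% of the summed DNMT level per length in shCtrl replicates 1 to 3 and 50.0, 49.9 and 49.7% in shAC007128.1. DNMT3B was at most 22.2% in shCtrl and 44.6, 44.5 and 45.8% in shAC007128.1, with means of 20.7 ± 1.61% and 45.0 ± 0.736% (SD, n = 3 each). The values within a group lay close together and the groups were far apart. With DNMT3B above and DNMT1 below shCtrl in every shAC007128.1 sample, their ratio had to separate. The shares restate the results of the single genes. With MANE Select lengths, DNMT3B went from 12.9 ± 1.05% (SD, n = 3) to 31.8 ± 0.54% (SD, n = 3). DNMT3A was the least abundant DNMT in every sample, at 4.47 to 7.68%.

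Within the TET family TET3 was the most abundant in every sample, at 60.5 to 66.1% in shCtrl and 45.2 to 55.1% in shAC007128.1. TET1 went from 15.9 to 20.0% in shCtrl to 25.5 to 31.8% in shAC007128.1. The summed TET level was 23.4 ± 1.22 TPM (SD, n = 3) in shCtrl and 38.1 ± 2.44 TPM (SD, n = 3) in shAC007128.1. The summed DNMT level was 46.6 ± 1.65 and 59.1 ± 5.05 TPM (SD, n = 3 each) with merged exon lengths. With MANE Select lengths it was 77.8 ± 2.41 and 85.8 ± 5.69 TPM (SD, n = 3 each) and the groups overlapped, so a rise of the sum depends on the length used. With merged exon lengths, the ratio of summed DNMT to summed TET was 2.20, 1.91 and 1.87 in shCtrl and 1.69, 1.68 and 1.32 in shAC007128.1, lower in each shAC007128.1 sample than in any shCtrl sample. With MANE Select lengths it was 4.72, 4.12 and 4.03 in shCtrl and 3.21, 3.21 and 2.46 in shAC007128.1, with the same order of the groups. These shares and sums are a description without a test.

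**Figure D3:**
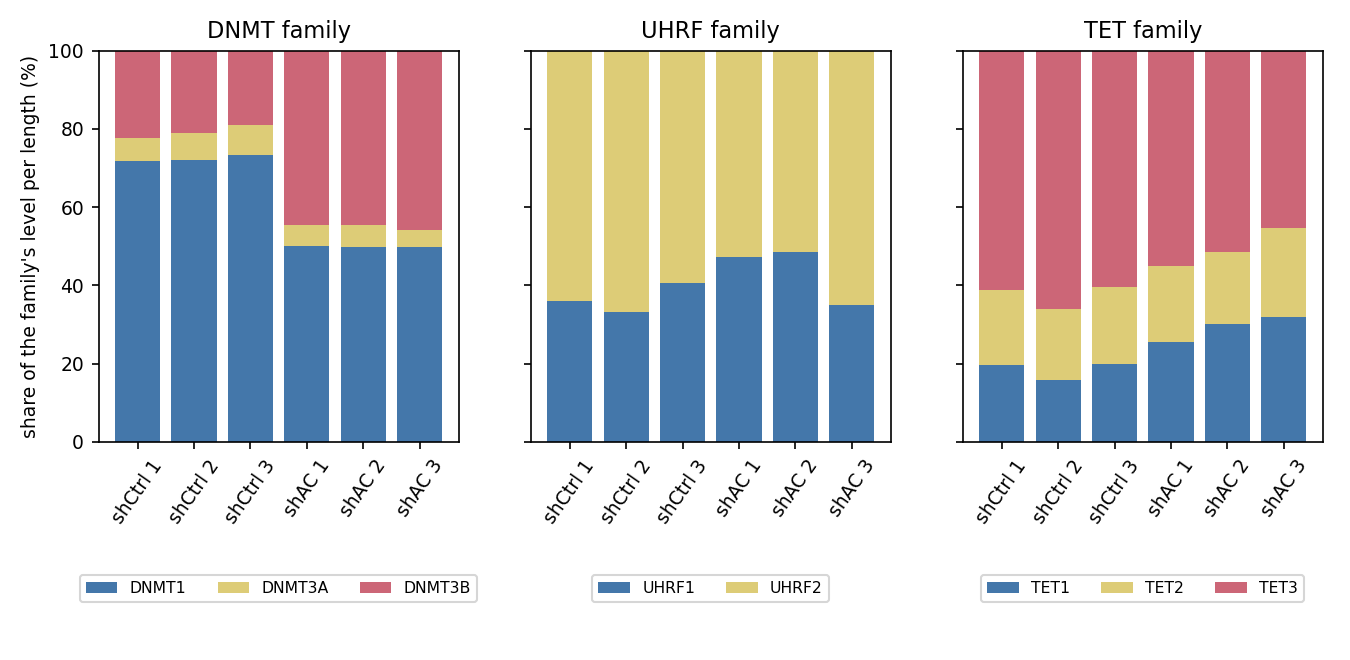
Share of each gene (%) in its family's summed level per length (merged exons), one stacked bar per sample, shCtrl left and shAC007128.1 (written shAC) right in each panel. DNMT3B takes 20.7% of the DNMT bar on average in shCtrl and 45.0% in shAC007128.1, while the UHRF1 shares of the 2 groups overlap.

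S phase and G2/M genes were mostly higher, and this stands beside the result for UHRF1, DNMT1 and the other members. Of 42 S phase genes (UHRF1 left out) 39 rose and 0 fell, with a median log2 fold change of 1.20 and a range of 0.18 to 2.31. E2F8, an atypical E2F factor, rose by 2.31 on the log2 scale, MCM6, a subunit of the replicative helicase, by 1.95, the checkpoint adaptor CLSPN by 1.71 and the replication clamp PCNA by 1.64. Of 54 G2/M genes 51 rose and 0 fell, with a median of 1.07. TUBB4B (1.78), a beta tubulin, CDCA8 (1.24), a subunit of the chromosomal passenger complex, TOP2A (1.76), the type II topoisomerase, and GTSE1 (1.85) had the smallest p. At an unadjusted p under 0.05, and with DESeq2 or limma-voom, also 0 genes of either list were lower. Of all genes tested, 21.0% were higher and 19.8% lower by the edgeR test. The summed S phase level was 1830 to 1900 CPM in shCtrl and 3940 to 4270 CPM in shAC007128.1. The part of the cell cycle genes in the members' values was not tested.

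Set against these genes, DNMT1 at -0.18 was below the lowest S phase gene, PRIM1 at 0.18 (adjusted p = 0.342), which was chosen after its values were seen. The log2 ratio of DNMT1 to PCNA counts was 1.13 ± 0.04 (SD, n = 3) in shCtrl and -0.69 ± 0.19 (SD, n = 3) in shAC007128.1 (exact permutation p = 0.1, adjusted p = 0.117). For UHRF1 the same ratio was -0.22 ± 0.24 (SD, n = 3) and -0.92 ± 0.31 (SD, n = 3), with groups apart (exact permutation p = 0.1, adjusted p = 0.117). With DNMT1 below and PCNA above shCtrl in every shAC007128.1 sample, the ratio of DNMT1 to PCNA had to separate.

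Of 18 partners of maintenance and de novo methylation, 17 were tested. Of these 10 rose and 0 fell, where 21.0% of all genes were higher and 19.8% lower. The median log2 fold change of the partners was 0.52. At an unadjusted p under 0.05, and with DESeq2 or limma-voom, 11 were higher and 0 lower. PCLAF, the PCNA-associated factor that UHRF1 ubiquitinates, went from 12.5 ± 0.821 to 49.6 ± 3.08 CPM (SD, n = 3 each), a log2 fold change of 1.99 ± 0.10 (SE, edgeR adjusted p = 2.95e-05). LIG1, the ligase of the lagging strand and a ligand of UHRF1, rose by 1.25 and EZH2, the H3K27 methyltransferase, by 1.35. PCNA, HELLS and CDCA7 are also in the S phase list. Named after its values were seen, DNMT3L, the catalytically inactive partner of the de novo enzymes, was not tested at 0.0272 CPM in shCtrl and 0.0299 CPM in shAC007128.1.

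Of 9 other methyl-CpG-binding proteins, 2 rose and 3 fell (median -0.06), against 21.0% higher and 19.8% lower over all genes tested, so the number that rose is near that of genes at large. MBD5 rose by 0.80 and ZBTB38 by 0.58 on the log2 scale. MBD1 fell, with means of 88.7 ± 2.90 CPM in shCtrl and 73.1 ± 3.11 CPM in shAC007128.1 (SD, n = 3 each) and a log2 fold change of -0.28 ± 0.07 (SE, edgeR adjusted p = 0.0203). Without shCtrl replicate 3 only 1 rose, and without shCtrl replicate 1, 2 or 3 in turn only 1 fell. Of 12 subunits of NuRD, the complex recruited by MBD2, 6 rose and 0 fell (median 0.39). At an unadjusted p under 0.05, 7 were higher and 0 lower, and DESeq2 and limma-voom each called 6 higher and 0 lower. The histone-binding subunit RBBP4 rose by 1.42, CDK2AP1 by 1.14, the deacetylase HDAC1 by 0.77 and GATAD2B by 0.62.

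Of 14 base excision repair and GADD45 genes, 4 rose and 1 fell (median 0.20). With 21.0% of all genes higher and 19.8% lower, these counts do not set the list apart. NEIL3, a glycosylase, rose by 1.46, UNG, the uracil glycosylase, by 0.92, and PARP1 by 0.28. UNG is also in the S phase list. GADD45A, a stress-induced gene proposed to recruit TET and TDG to DNA, fell, from 141, 165 and 141 CPM in shCtrl to 53.2, 41.9 and 37.0 CPM in shAC007128.1, a log2 fold change of -1.76 ± 0.15 (SE, edgeR adjusted p = 0.000145). Only 2 rose without shCtrl replicate 2 or 3, or with no filter. The number that fell was 2 without shAC007128.1 replicate 2, with counts divided by 4 or with a minimum of 10 counts per sample, and 3 with library size only.

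Of 10 TET partners and 2-oxoglutarate enzymes 9 were tested, 2 rose and 3 fell (median 0.20), again beside 21.0% and 19.8% of all genes. OGT, the O-GlcNAc transferase that binds TET2 and TET3, fell from 529 ± 13.3 to 209 ± 34.7 CPM (SD, n = 3 each), a log2 fold change of -1.34 ± 0.12 (SE, edgeR adjusted p = 0.000169). D2HGDH, which clears the TET inhibitor 2-hydroxyglutarate, fell by 0.80 on the log2 scale. IDH1, the cytosolic source of 2-oxoglutarate, rose by 0.42. CXXC4, not tested and named after its values were seen, was listed at 0 in every sample. The number that rose was 4 without shAC007128.1 replicate 3 and 1 without shCtrl replicate 2 or 3.

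The methionine cycle makes S-adenosylmethionine, the methyl donor of the DNMTs. Of its 13 genes 10 were tested, 2 rose and 4 fell (median -0.15), where 21.0% of all genes were higher and 19.8% lower. MAT2A, the enzyme that makes S-adenosylmethionine outside the liver, fell from 330 ± 6.97 to 174 ± 16.2 CPM (SD, n = 3 each), a log2 fold change of -0.93 ± 0.08 (SE, edgeR adjusted p = 0.000172). MTRR, which reactivates methionine synthase, fell by 0.88. MTR, methionine synthase itself, rose by 0.65. Without shAC007128.1 replicate 2 or shCtrl replicate 1 or 2, 1 gene rose and 2 fell, as with the replicate block. Only 1 rose without shCtrl replicate 3, with library size only or with no filter.

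Expression of genes that are silenced by methylation in most somatic cells was then described. Methylation itself was not measured. Of 40 cancer-testis and germline genes only 9 passed the filter, 3 rose and 0 fell, beside 21.0% and 19.8% of all genes. At an unadjusted p under 0.05 also 3 were higher and 0 lower, and 0 were lower with DESeq2 or limma-voom. Those that rose were already expressed in shCtrl cells: MAGEA4 at 456 ± 10.2 CPM (SD, n = 3), with a log2 fold change of 0.28 (edgeR adjusted p = 0.0131), MAGEA12 at 91.5 CPM (0.40) and MAGEA3 at 96.0 CPM (0.29). MAGEA genes are close paralogs between which reads can be split, so their single values are uncertain. PAGE2B was at 0.329 CPM in shCtrl and 0.0663 CPM in shAC007128.1 (adjusted p = 0.106). Of the 31 genes not tested, 16 had no count in any sample and the other 15 did not exceed 25 counts, or 0.311 CPM, in any sample. The number that rose was 1 without shCtrl replicate 2 or 3 or with no filter, and 1 fell without shCtrl replicate 1.

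Of 24 imprinted genes, whose alleles differ in methylation, 13 were tested, 4 rose and 1 fell (median 0.18), while 21.0% of all genes were higher and 19.8% lower. PHLDA2, a growth regulator, rose by 0.56, ZNF597 by 0.37 and GNAS, the stimulatory G protein subunit, by 0.50. GRB10, an adaptor of insulin receptor signaling, fell by 0.77 ± 0.18 (SE, edgeR adjusted p = 0.0128). The 11 genes not tested, IGF2, MEG3 and PEG3 among them (chosen after their values were seen), did not exceed 11 counts in any sample. The number that rose was 2 without shAC007128.1 replicate 1 or shCtrl replicate 1 or 2 and with the replicate block. It was 1 without shAC007128.1 replicate 2 or shCtrl replicate 3, with library size only and with no filter. Without shCtrl replicate 2 the call of GRB10 was lost.

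**Figure D4:**
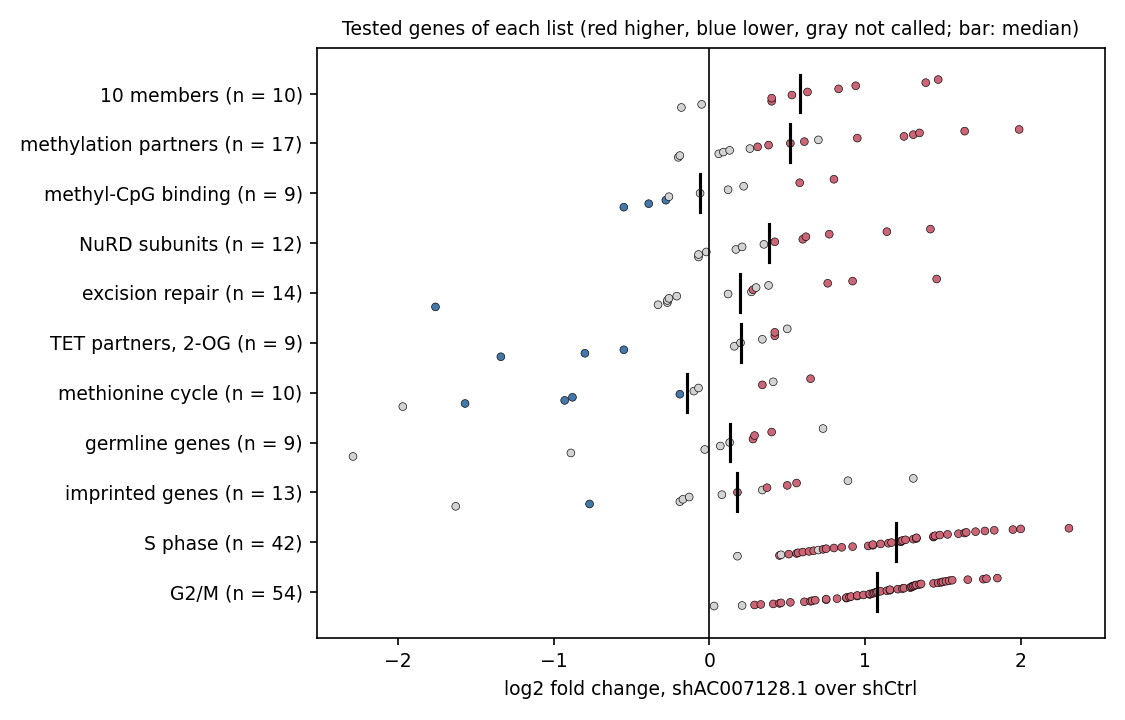
Log2 fold change in shAC007128.1 over shCtrl cells for the tested genes of each list, 1 point per gene (red, called higher; blue, called lower; gray, not called), with a black bar at the list's median. S phase (median 1.20) and G2/M (1.07) lie to the right as whole lists, the members have a median of 0.58, and the methionine cycle (-0.15) and methyl-CpG-binding proteins (-0.06) are spread on both sides of 0.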

How the data were processed

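RNA from 3 shCtrl and 3 shAC007128.1 samples was sequenced from poly-A TruSeq libraries, with no strand setting given. The authors filtered the reads and mapped them to hg38 with TopHat. The submitters' processing notes list TopHat2 2.0.6, CASAVA 1.8 and the builds mm10 and GRCh38. The authors deposited 1 table of estimated counts per Ensembl gene, whole numbers with no scaling. Low values piled up at multiples of 4, so 1 count may stand for less than 1 read pair, and the totals may overstate the depth; this is why counts divided by 4 were tried. The program and annotation behind it are not given in the sources used here. Samples were grouped by title and description, and 0 sample columns were left unmapped.

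Of 67140 identifiers, 60357 (89.9%) were found in GENCODE v44, which gave symbols, hg38 positions and lengths. Counts were filtered with filterByExpr (19254 genes kept), scaled by TMM (factors 0.967 to 1.042) and tested with edgeR 4.0.16 in R 4.3.3, p-values adjusted over all genes tested (Benjamini-Hochberg). Standard errors are the log2 fold change over the root of F, and 95% intervals use the test's degrees of freedom. The steps were tested on simulated data with far fewer changed genes than were called here, so that test does not cover so broad a change. Alternatives were DESeq2 1.42.0, limma-voom 3.58.1, other scalings and filters, the replicate block, counts divided by 4 and each sample left out. The genes and lists were chosen with earlier results of these data known. Named are the 10 members, AC007128.1 and the 4 genes with the smallest p in each list, of which some are not reported here. Any other gene was chosen after its values were seen, marker genes aside.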

Additional observations from a re-analysis of the deposited data

How the results depend on the processing

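The number of members called higher, 8, was 8 under every alternative except without shCtrl replicate 1 (7). The number called lower, 0 with edgeR, was 1 with library size only (DNMT1), and 0 under each of the others. Beyond 2-fold, 2 members were higher under the alternatives, or 3 without shAC007128.1 replicate 3 or shCtrl replicate 3, and none was lower. DNMT3A changed sign without shAC007128.1 replicate 3, with log2 fold changes of -0.14 to 0.07 over the samples left out, and the cause was not tested. The members called higher kept a positive log2 fold change throughout, from 0.30 at the lowest (MBD2) to 1.56 at the highest (DNMT3B). Counts per gene list were equal to the main count or within 1.5 times of it in 242 combinations of list, direction and alternative and not in 38. The 242 include combinations in which both counts were 0.

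With the replicate block 8 members were higher and 0 lower, and 3524 and 3256 of all genes against 4041 and 3820 without it. The deviations of same-numbered samples correlated at 0.0306, -0.0254 and -0.0299, so no pairing by number was seen over all genes tested. A pairing limited to some genes was not tested. The median log2 fold change of all genes was -0.10 with library size only, the setting in which DNMT1 was called lower. It was -0.15 with no filter, over a larger set of genes (34756). The log2 fold change of DNMT1 was negative under every alternative, from -0.25 to -0.13. Whether so small a change was called depended on the scaling. Counts give no isoform, and protein and methylation were not measured.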
